A study of Arabidopsis thaliana with 24 samples.

Results

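The genotype contrast examined here was pifq against wild type (WT) in seedlings grown in light and kept on plates with abscisic acid (ABA). It was chosen by the library labels, which give 3 pifq and 3 WT libraries under light and ABA, 6 of the 24 libraries of the series. All genes of these libraries were examined. Polyadenylated RNA was sequenced from Arabidopsis thaliana seedlings (Columbia-0) in 8 groups of genotype, light and treatment with 3 biological replicates each. The pifq groups are labelled only as pifq, a line known to carry mutations in the genes PIF1, PIF3, PIF4 and PIF5. The sources used here do not name its alleles, and it is 1 mutant line. All groups were stratified for 2 days and germinated on a mesh over medium with 1% sucrose at 22 °C. Light groups stood in low white light (10 µmol m-2 s-1) with 16 h of light and 8 h of darkness, were moved after 72 h to mock (ethanol) or ABA plates, and stayed there for 5 days. Dark groups, after a light pulse, were moved after 62 h and stayed for 4 days in darkness, so light and seedling age differ together. The labels state that these times hold unless noted otherwise, and the sources used here do not name an ABA dose. Organs and cell layers are mixed in seedling RNA, so fewer cells of a type and less RNA per cell cannot be told apart in any result below.

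Phytochrome interacting factors (PIFs) are bHLH transcription factors that bind E-box and G-box DNA and promote elongation growth. Phytochromes activated by light bind the PIFs and mark most of them for degradation, so PIF action is strongest in darkness and in shade. ABA is a hormone of seed maturation and water shortage that restrains germination and seedling growth through PYL receptors, clade A PP2C phosphatases and SnRK2 kinases. The title of the series names PIFs, SAUR genes and hypocotyl elongation under ABA in darkness, and the libraries in light show how the same mutant stands under ABA when phytochromes are active.

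The 6 libraries held 13722850 to 15611032 counts, and their replicates were closely spaced. The median gene had an SD between replicates of 0.154 (WT) and 0.167 (pifq) on the log2 scale of read counts scaled to a common library size (CPM). Counts of same-group replicates differed 8.4 to 18.4 times more, as chi-square per degree of freedom, than counting error gives. None of the 6 libraries was thus a copy of another library of its own group. Levels below are CPM after TMM scaling (a trimmed mean of log ratios), and a level compares 1 gene between libraries, not different genes, since gene length is not divided out. A log2 change is pifq minus WT with its standard error (SE). A gene was called when its adjusted p in edgeR's quasi-likelihood test (Benjamini-Hochberg over all 20828 genes tested) was under 0.05.

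PIF3 and PIF5 transcripts were low in every pifq library, which goes with the labels, whereas PIF1 transcript was not. PIF3 (AT1G09530, chromosome 1) stood at 109, 115 and 160 CPM in WT and at 12.83, 10.11 and 16.56 CPM in pifq. All pifq libraries lay far below all WT libraries, with a log2 change of -3.29 ± 0.27 (adjusted p = 4.14e-07). PIF5 (AT3G59060, chromosome 3) stood at 319, 360 and 419 CPM in WT and at 58.4, 53.1 and 57.1 CPM in pifq, a change of -2.70 ± 0.17 (adjusted p = 5.57e-09). PIF4 was lower by a smaller step, from 309, 327 and 340 CPM to 187, 162 and 200 CPM (-0.83 ± 0.12, adjusted p = 0.000364). PIF1 read 70.3, 73.9 and 76.6 CPM in WT and 74.6, 98.5 and 89.4 CPM in pifq, with overlapping groups (0.25 ± 0.10, adjusted p = 0.266). An insertion can leave transcript on either side of it, so the levels of PIF1 and PIF4 check no label. PIF7, a family member not mutated in pifq, read 33.7, 17.9 and 28.4 CPM in WT and 48.9, 29.9 and 46.1 CPM in pifq. Its change of 0.64 ± 0.22 was not called (adjusted p = 0.183), but was called with replicate numbers as a block (adjusted p = 0.00175).

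Across the genome, few genes were called by the test with no replicate block. Of 20828 genes tested, 267 (1.28%) were called, 122 higher (0.586%) and 145 lower (0.696%) in pifq. An unadjusted p under 0.05 was held by 2718 genes (13%). A change of at least 2-fold was seen in 35 of the higher genes (0.168% of all tested) and 60 of the lower genes (0.288%). The median log2 change over all genes was -0.0075. The groups did not overlap in 264 of the 267 called genes, beside 3737 of all 20828 genes (17.9%). Scaling by library totals alone moved the balance of directions, to 78 higher and 244 lower (24.2% higher against 45.7%). Same-numbered WT and pifq libraries of light ABA deviated together, and with the replicate number as a block 918 genes were called, 542 higher and 376 lower, among them all 267. With that block in the 6 compared libraries alone, 3924 of 18804 genes were called (20.9%). The number of genes called thus depends strongly on whether the libraries are paired. Leaving out a library lowered the count in each case, to 156 without WT replicate 1, 100 without WT replicate 3, 154 without pifq replicate 1, 172 without pifq replicate 2 and 144 without pifq replicate 3. It was 197 without WT replicate 2.

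**Figure D1:**
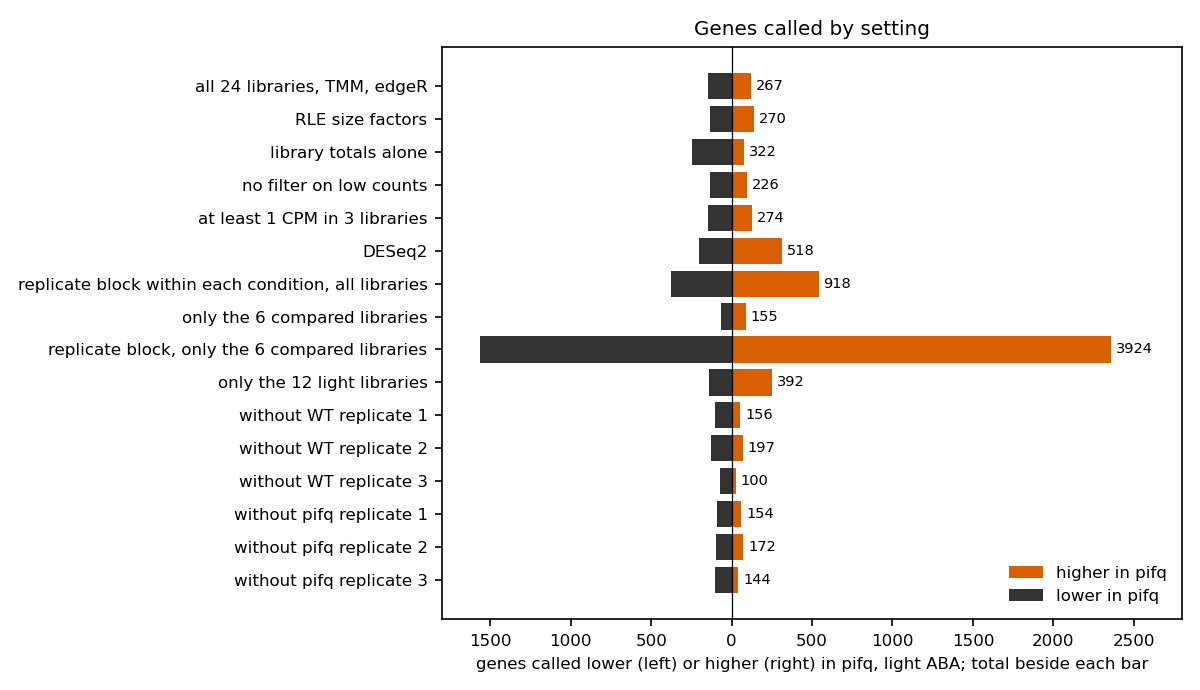
Number of genes called lower (dark bars, leftward) and higher (orange bars, rightward) in pifq against WT under light ABA, 1 row per setting of the test, with the total beside each bar. The replicate block gave 918 calls with all libraries and 3924 with the 6 compared libraries alone, where the test with no block gave 267 and 155.

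The 12 genes lowest in pifq, among called genes that carry a symbol, average 5 CPM or more in the higher group and do not overlap between genotypes, held regulators of the shade response, cell wall genes and receptor kinases. PIF3 and PIF5 are among them. HFR1 (AT1G02340), an atypical bHLH protein that binds PIFs and restrains the shade response, stood at 48.5, 45.7 and 57.1 CPM in WT and at 7.58, 5.97 and 7.38 CPM in pifq (-2.85 ± 0.16, adjusted p = 5.22e-10). ATHB2 (AT4G16780), a homeodomain-leucine zipper factor induced by shade, stood at 35.1, 31.4 and 35.2 CPM against 6.6, 4.86 and 6.95 CPM (-2.47 ± 0.18, adjusted p = 2.78e-08). In both genes the pifq libraries stood within a narrow band well below WT. XTR7 (AT4G14130), a xyloglucan endotransglucosylase/hydrolase that remodels the cell wall, varied more, at 86.1, 91.7 and 51.7 CPM in WT and 16.1, 21.3 and 7.64 CPM in pifq. Replicate 3 was the lowest library of both genotypes, and the change was -2.34 ± 0.37 (adjusted p = 0.00175).

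FLS2 (AT5G46330), the receptor kinase for bacterial flagellin, was at 29.2, 41.1 and 37.8 CPM in WT and at 5.1, 6.69 and 5.75 CPM in pifq (-2.62 ± 0.22, adjusted p = 4.14e-07). WAK2 (AT1G21270), a wall-associated receptor kinase, was at 8.93, 9.62 and 19.6 CPM in WT and at 0.6, 1.51 and 4.38 CPM in pifq (-2.59 ± 0.45, adjusted p = 0.00638). Its highest pifq library stayed below its lowest WT library, but with the 6 compared libraries alone neither WAK2 nor XTR7 was called (adjusted p = 0.169 and 0.0795), and WAK2 was not called with the 12 light libraries (adjusted p = 0.0502). ELI3-1 (AT4G37980), an elicitor-activated gene of the cinnamyl alcohol dehydrogenase family, was at 203, 210 and 274 CPM in WT and 51.6, 45.9 and 69.7 CPM in pifq (-2.04 ± 0.25, adjusted p = 0.00013). It has a similar neighbouring copy with which reads may be shared. MBP1 (AT1G52040), a myrosinase-binding protein, was at 13.3, 11.2 and 10.7 CPM in WT and at 0.975, 1.03 and 2.57 CPM in pifq (-2.95 ± 0.32, adjusted p = 1.16e-05). That the genotypes do not overlap in any of these genes follows from the rule that chose them. PGL2 (AT3G49360), a 6-phosphogluconolactonase of the pentose phosphate pathway, read 9, 11.9 and 8.83 CPM in WT and 0.9, 1.59 and 1.63 CPM in pifq (-2.86 ± 0.32, adjusted p = 1.87e-05). The small-peptide genes RTFL18 (AT5G16023; -2.26 ± 0.33, adjusted p = 0.000433) and RTFL16 (AT3G25717; -2.05 ± 0.23, adjusted p = 2.35e-05) complete the 12. RTFL16 read 20.3, 12.8 and 16.3 CPM in WT and 4.88, 3.03 and 4.03 CPM in pifq. All 12 genes remained called when any 1 of the 6 libraries was left out.

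Beyond the rule for named genes, and chosen after their values were seen, 4 noncoding RNA genes without a symbol had large changes. AT3G05945, a long noncoding RNA of chromosome 3, stood at 50.4, 50.8 and 50.8 CPM in WT and at 0.975, 1.12 and 0.944 CPM in pifq (-5.63 ± 0.17, adjusted p = 3.35e-15). AT3G06955 (3.69 ± 0.35, adjusted p = 1.16e-06) and AT2G05914 (3.72 ± 0.46, adjusted p = 5.84e-05), also long noncoding RNAs, were higher in pifq. AT4G04223, a noncoding RNA, was higher as well (2.26 ± 0.16, adjusted p = 1.15e-08).

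The 12 genes highest in pifq by the same rule had mixed roles, among them sugar and nitrogen metabolism, the cell wall and DNA replication, and they are given one by one. QQS (AT3G30720), an orphan gene that affects starch content, stood at 5.02, 2.19 and 0.913 CPM in WT and at 53.4, 37.6 and 44.2 CPM in pifq (4.03 ± 0.40, adjusted p = 1.04e-05). PGL5 (AT5G24420), a 6-phosphogluconolactonase like PGL2 but with the opposite direction, stood at 3.85, 1.02 and 4.19 CPM in WT and at 16.6, 12.2 and 21.3 CPM in pifq (2.46 ± 0.35, adjusted p = 0.000364). BGAL1 (AT3G13750), a beta-galactosidase of the cell wall, stood at 995, 1203 and 813 CPM in WT and at 1682, 1959 and 1771 CPM in pifq (0.85 ± 0.15, adjusted p = 0.00327). Every pifq library lay above every WT library in these genes, which the rule for naming them requires. FAD8 (AT5G05580), a fatty acid desaturase of the chloroplast, read 32.4, 21.9 and 22.6 CPM in WT and 60.5, 49.2 and 45.7 CPM in pifq (1.01 ± 0.17, adjusted p = 0.00158). These 4 of the 12 remained called whichever of the 6 libraries was left out. With the 6 compared libraries alone, PGL5 (adjusted p = 0.0765) and FAD8 (adjusted p = 0.0568) were not called.

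The other 8 of the highest 12 lay near the threshold, and each lost its call when some of the 6 libraries were left out. ASN1 (AT3G47340), an asparagine synthetase of nitrogen storage, read 462, 566 and 456 CPM in WT and 998, 1142 and 1206 CPM in pifq (1.17 ± 0.27, adjusted p = 0.0347). Its groups were far apart, yet the call was lost whichever 1 of the 6 libraries was left out (adjusted p = 0.061 to 0.181), with changes of 1.11 to 1.28. BXL2 (AT1G02640), a beta-xylosidase of the cell wall, read 28.5, 41.8 and 35.4 CPM against 57.2, 84.2 and 99.3 CPM (1.19 ± 0.23, adjusted p = 0.0113), and was lost without WT replicate 1, WT replicate 3 or pifq replicate 3 (adjusted p = 0.064 to 0.0742). PP2-A13 (AT3G61060), a phloem protein 2 of the F-box kind, read 8.52, 15.3 and 13.1 CPM against 16.8, 34.5 and 41.1 CPM (1.32 ± 0.30, adjusted p = 0.0356). Its groups stood nearly edge to edge, and its call was lost when any library other than pifq replicate 1 was left out (adjusted p = 0.0501 to 0.185). GH3.9 (AT2G47750), of the GH3 family whose members conjugate auxin, read 14.8, 8.09 and 9.36 CPM against 38.4, 27.1 and 34.1 CPM (1.62 ± 0.36, adjusted p = 0.029). It was lost without WT replicates 2 or 3 or pifq replicates 1 or 3 (adjusted p = 0.0857 to 0.158). CDC6 (AT2G29680), a licensing factor of DNA replication, changed by 1.17 ± 0.25 (adjusted p = 0.0185) and was lost without WT replicates 1 or 3 or pifq replicates 2 or 3 (adjusted p = 0.0724 to 0.141).

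The cytochrome P450 genes CYP76C6 (AT1G33720; 1.34 ± 0.29, adjusted p = 0.0185) and CYP706A6 (AT4G12320; 0.91 ± 0.19, adjusted p = 0.0181) were higher in pifq. CYP76C6 was lost without WT replicates 2 or 3 or pifq replicate 1 (adjusted p = 0.0834 to 0.116), and CYP706A6 when any library other than pifq replicate 1 was left out (adjusted p = 0.0544 to 0.0772), with changes of 0.83 to 0.99. FRO6 (AT5G49730), of the ferric reductase family, read 122, 112 and 162 CPM in WT and 205, 224 and 309 CPM in pifq (0.90 ± 0.20, adjusted p = 0.0326). Replicate 3 was the highest library of both genotypes, and the call was lost without WT replicates 1 or 2 or pifq replicates 2 or 3 (adjusted p = 0.0568 to 0.181). With no filter on low counts, GH3.9, PP2-A13, ASN1 and FRO6 were not called.

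**Figure D2:**
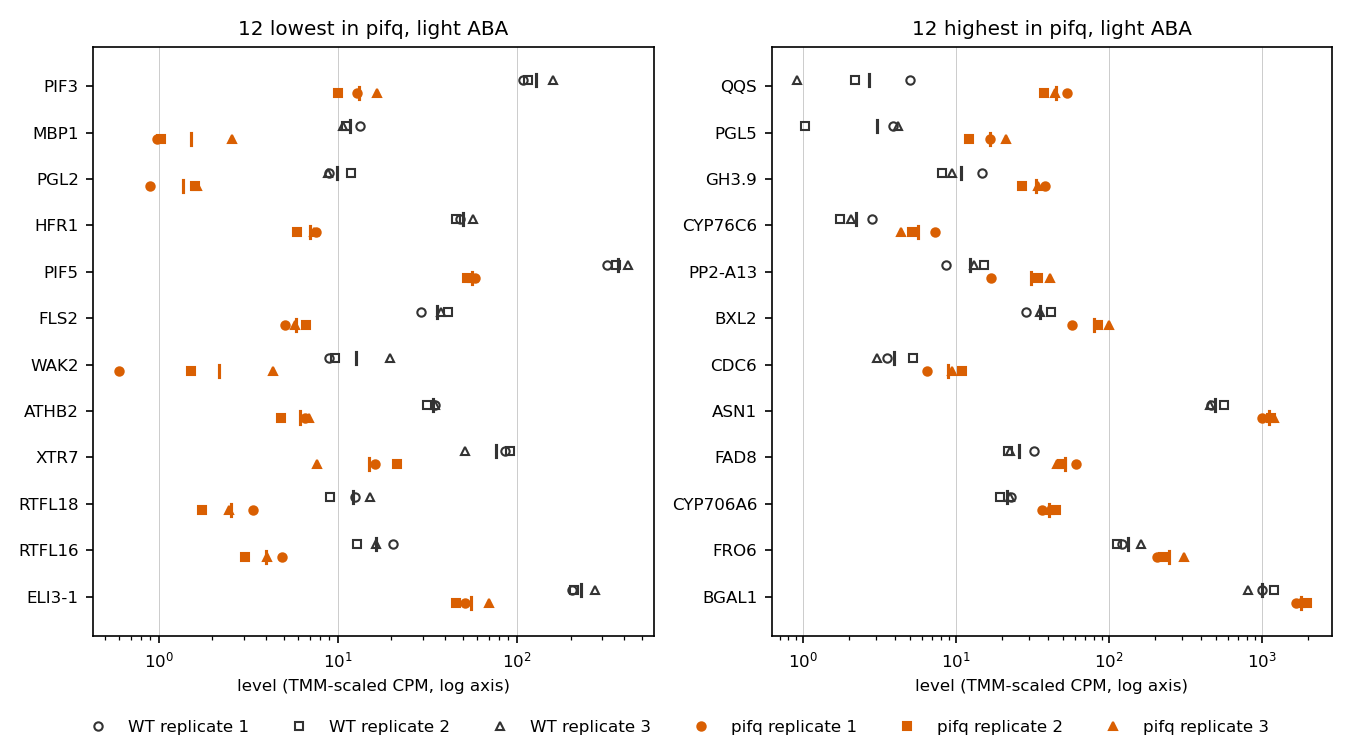
Level of the 12 lowest and the 12 highest genes in pifq under light ABA, in TMM-scaled CPM on a log axis. Open symbols are WT and filled symbols pifq, circles, squares and triangles are replicates 1, 2 and 3, and the vertical ticks are group means. The groups are apart in every row because the rule for naming requires it, with the widest gap in QQS and narrow gaps in PP2-A13 and CYP76C6.

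PIFs are known to bind CACGTG, the G-box, and CACATG, a PIF-binding E-box, so these letters were searched on both strands in the 300 bases before the annotated start of each gene. CACGTG reads the same on both strands, CACATG reads CATGTG on the other, and neither can contain the other. Of 20695 genes with a window, 8.22% held CACGTG and 13.2% held CACATG. Of the 60 genes at least 2-fold lower in pifq, 10% held CACGTG (Wilson 95% interval 4.66% to 20.1%) and 21.7% held CACATG (13.1% to 33.6%). The lower genes include PIF3 and PIF5, which are themselves mutated in pifq. Of the 35 genes at least 2-fold higher, 8.57% held each motif (2.96% to 22.4%). Each of these intervals includes the share in all genes, that of CACATG in the lower genes only just. With no fold minimum, CACATG was held by 28 of the 145 lower genes (19.3%, interval 13.7% to 26.5%), an interval above the share in all genes, and by 10 of the 122 higher genes (8.2%, 4.51% to 14.4%). CACGTG was then held by 10.3% of the lower genes (6.37% to 16.4%) and 7.38% of the higher genes (3.93% to 13.4%). In windows of 1000 bases, a length added after the values were seen, CACATG was held by 50% of the 60 lower genes (37.7% to 62.3%), 40% of the 35 higher genes (25.6% to 56.4%) and 38.3% of all genes, and with no fold minimum by 48.3% of the lower genes (40.3% to 56.3%) and 41% of the higher genes (32.7% to 49.9%). Of the 19 PIF-promoted shade genes, 7 held CACATG and 2 held CACGTG within 300 bases. The 5 shade genes called lower under light ABA (HFR1, ATHB2, XTR7, HAT1 and PIL1) held neither motif there.

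A motif stood in the windows of 4 of the 12 lowest genes (MBP1, PIF5, ELI3-1 and FLS2) and 5 of the 12 highest (PGL5, PP2-A13, ASN1, FRO6 and CYP706A6). All 4 of the lowest and, as examples, PGL5 and PP2-A13 are shown, so that the letters can be read beside the changes. Sequences are from RefSeq, build TAIR10.1, 5' to 3' on the strand of the gene, with the motif in capitals. MBP1 (chr1:19352792-19353091, minus strand) holds CACGTG and CACATG, the second read as CATGTG. PIF5 (chr3:21830838-21831137, minus strand) holds CACGTG, and ELI3-1 (chr4:17852141-17852440, plus strand) and FLS2 (chr5:18791275-18791574, plus strand) hold CACATG, in FLS2 as CATGTG. PGL5 (chr5:8338033-8338332, minus strand) and PP2-A13 (chr3:22602516-22602815, plus strand) hold CACGTG.
MBP1: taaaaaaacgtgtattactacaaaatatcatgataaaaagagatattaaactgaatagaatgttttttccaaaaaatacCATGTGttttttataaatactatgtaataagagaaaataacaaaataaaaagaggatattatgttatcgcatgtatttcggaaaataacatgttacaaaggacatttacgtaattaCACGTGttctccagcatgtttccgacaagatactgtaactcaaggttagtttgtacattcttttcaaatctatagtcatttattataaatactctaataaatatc
PIF5: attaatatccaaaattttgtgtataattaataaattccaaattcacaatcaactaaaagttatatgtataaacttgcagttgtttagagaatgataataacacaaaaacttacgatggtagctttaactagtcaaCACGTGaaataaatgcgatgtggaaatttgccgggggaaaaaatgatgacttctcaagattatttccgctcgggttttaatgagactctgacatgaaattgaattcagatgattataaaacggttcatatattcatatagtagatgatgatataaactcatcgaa
ELI3-1: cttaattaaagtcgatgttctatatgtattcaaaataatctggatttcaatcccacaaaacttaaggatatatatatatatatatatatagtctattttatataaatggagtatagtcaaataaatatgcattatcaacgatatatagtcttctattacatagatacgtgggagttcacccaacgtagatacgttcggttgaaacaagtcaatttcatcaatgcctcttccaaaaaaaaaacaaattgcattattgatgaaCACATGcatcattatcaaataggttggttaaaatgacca
FLS2: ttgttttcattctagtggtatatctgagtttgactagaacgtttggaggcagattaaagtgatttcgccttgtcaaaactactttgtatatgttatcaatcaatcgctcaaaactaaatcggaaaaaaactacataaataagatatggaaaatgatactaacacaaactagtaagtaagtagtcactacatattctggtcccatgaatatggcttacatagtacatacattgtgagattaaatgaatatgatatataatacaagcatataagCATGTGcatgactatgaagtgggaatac
PGL5: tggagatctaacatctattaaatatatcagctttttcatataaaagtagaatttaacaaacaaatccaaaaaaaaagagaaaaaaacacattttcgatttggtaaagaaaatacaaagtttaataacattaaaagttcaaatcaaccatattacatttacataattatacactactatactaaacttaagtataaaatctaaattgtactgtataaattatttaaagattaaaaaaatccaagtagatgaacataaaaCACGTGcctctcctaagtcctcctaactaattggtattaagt
PP2-A13: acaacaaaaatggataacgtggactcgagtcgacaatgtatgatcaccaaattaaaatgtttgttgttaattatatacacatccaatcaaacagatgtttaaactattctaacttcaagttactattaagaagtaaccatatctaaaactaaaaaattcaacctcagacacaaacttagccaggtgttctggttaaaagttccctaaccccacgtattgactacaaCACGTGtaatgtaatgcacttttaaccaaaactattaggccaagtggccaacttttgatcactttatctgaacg
These matches are descriptions of the letters. The same G-box stands in the windows of genes lower in pifq (MBP1, PIF5) and higher in pifq (PGL5, PP2-A13, ASN1, FRO6). PIF5 is itself mutated in pifq, so the part of its own mutation in its level cannot be told apart. CYP706A6, also higher, holds CACATG. The windows of the other 8 of the lowest 12, HFR1, ATHB2 and XTR7 among them, and of the other 7 of the highest 12, QQS among them, hold neither motif.

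Gene lists by role were then read against the background of 0.586% called higher and 0.696% called lower. Other settings have other backgrounds. With the replicate block in all libraries 4.41% of all genes were called (542 higher and 376 lower of 20828), and with DESeq2 2.84%. An unadjusted p under 0.05 was held by 13% of all genes, and groups were apart in 17.9%. Of the 19 PIF-promoted shade genes, 0 were called higher and 5 lower, with a median log2 change of -0.76 beside -0.0075 over all genes. HFR1, ATHB2 and XTR7 are described above. HAT1, another homeodomain-leucine zipper factor, read 20.89, 18.23 and 26.11 CPM in WT and 11.2, 11.5 and 13.2 CPM in pifq (-0.86 ± 0.15, adjusted p = 0.00288). Outside the rule for named genes, PIL1, a bHLH gene induced by shade, had 44 counts over the WT libraries and 3 over the pifq libraries. The ratio was 13.9 with a counting interval of 4.46 to 70.1 (adjusted p = 0.00935). HAT2 (-0.02 ± 0.14, adjusted p = 0.978) and HAT3 (0.14 ± 0.12, adjusted p = 0.687), close relatives of HAT1 and also outside that rule, were not called. IAA29, an auxin-response repressor, stood at 3.44, 1.46 and 4.64 CPM in WT and 0.825, 0.478 and 0.257 CPM in pifq, apart but not called (-2.56 ± 0.73, adjusted p = 0.105).

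Auxin genes gave 0 higher and 2 lower of 27, with a median of -0.333 and 23 of 27 values below 0. AUX1, an auxin influx carrier, read 187, 154 and 222 CPM in WT and 117, 105 and 135 CPM in pifq (-0.66 ± 0.12, adjusted p = 0.00686), and was lost without WT replicate 3 (adjusted p = 0.0754). YUC2, an enzyme of auxin synthesis, changed by -0.94 ± 0.20 (adjusted p = 0.0208) and was lost when any library other than WT replicate 2 was left out (adjusted p = 0.0571 to 0.113). YUC8, the synthesis gene best known as a PIF target but outside the rule for named genes, differed by -0.73 ± 0.23 and was not called (adjusted p = 0.137). With the replicate block 6 of the 27 were lower, among them the efflux carrier gene PIN7 (-0.45 ± 0.13, adjusted p = 0.107, with the block 0.0368).

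SAUR genes, small auxin-induced RNAs whose products promote cell expansion, gave 0 higher and 6 lower of 63 tested, with a median of -0.208. All 6 are SAUR19 to SAUR24, neighbouring and nearly identical copies whose reads can be split between them, so the single values are uncertain while the direction was shared by all 6. SAUR19 read 3.16, 4.23 and 4.42 CPM in WT and 0.45, 0.319 and 0.772 CPM in pifq (-2.93 ± 0.40, adjusted p = 0.00018). SAUR22 read 4.26, 3.21 and 5.56 CPM against 0.3, 0.319 and 0.515 CPM (-3.51 ± 0.54, adjusted p = 0.001). SAUR21 (-1.73 ± 0.25, adjusted p = 0.000364) and SAUR23 (-1.65 ± 0.24, adjusted p = 0.000471) had smaller changes. Outside the rule for named genes, the copies SAUR20 (-1.36 ± 0.30, adjusted p = 0.0217) and SAUR24 (-1.28 ± 0.30, adjusted p = 0.0346) were nearest to the threshold. Leaving out 1 library left 4 or 5 called lower. The other 57 SAUR genes tested were not called, 3 of them being called higher with the replicate block, and the remaining members had too few counts to be tested.

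Expansins and xyloglucan endotransglucosylase/hydrolases, which loosen or remodel walls, gave 0 higher and 2 lower of 47 tested (median -0.216). Besides XTR7, EXPA8 read 30.2, 27.3 and 42.2 CPM in WT and 10.7, 13.1 and 17.2 CPM in pifq (-1.28 ± 0.22, adjusted p = 0.00326), a call lost with the 6 compared libraries alone (adjusted p = 0.0523). With the replicate block 6 were lower, among them EXPA6 (adjusted p = 0.183, with the block 0.0294). Brassinosteroid genes gave 1 lower of 12. CPD, a cytochrome P450 of brassinosteroid synthesis, was very even within genotypes, at 463, 471 and 474 CPM in WT and 312, 297 and 326 CPM in pifq (-0.59 ± 0.09, adjusted p = 0.000913). BIM1, a bHLH partner in brassinosteroid signalling and the single call among 12 HLH growth regulators, changed by -0.48 ± 0.10 (adjusted p = 0.0133), and was lost without WT replicates 1 or 3 or pifq replicate 3 (adjusted p = 0.0596 to 0.0857).

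Gibberellin genes gave 0 higher and 2 lower of 17, both of them DELLA repressors of gibberellin response, beside a list median of 0.107 (-0.0776 without pifq replicate 2 and 0.341 without WT replicate 2). GAI read 119, 145 and 185 CPM in WT and 75.7, 92.2 and 114 CPM in pifq (-0.67 ± 0.15, adjusted p = 0.0256) and was lost without WT replicates 2 or 3 or pifq replicates 1 or 2 (adjusted p = 0.053 to 0.201). RGL1 (-1.25 ± 0.31, adjusted p = 0.049) was lost whichever library was left out (adjusted p = 0.0606 to 0.205) and with RLE size factors (adjusted p = 0.0511). Ethylene genes gave 3 lower and 0 higher of 16. The synthesis gene ACO4, an ACC oxidase, read 335, 337 and 372 CPM in WT and 150, 139 and 195 CPM in pifq (-1.11 ± 0.16, adjusted p = 0.000505), with a wide gap between groups. ACS8, an ACC synthase, read 6.25, 1.17 and 5.33 CPM against 0.45, 0.398 and 0.343 CPM (-3.39 ± 0.64, adjusted p = 0.00757), with WT replicate 2 far below its group, and was lost with the 6 compared libraries alone (adjusted p = 0.0897). EIN3, the main transcription factor of the ethylene response, changed by -0.36 ± 0.08 (adjusted p = 0.0254) and was lost without WT replicates 2 or 3 or pifq replicates 1 or 3 (adjusted p = 0.0783 to 0.114).

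No gene of the ABA lists was called in the test with all libraries. Of 19 receptor and signalling genes, 9 clade A PP2C phosphatases, 12 genes of ABA synthesis and catabolism and 21 ABA-induced effectors, 0 were called in either direction by edgeR, with medians of -0.0103, -0.111, -0.173 and -0.202. The first of these medians had no stable sign, at 0.00622 with RLE size factors and between -0.0329 (without pifq replicate 2) and 0.177 (without WT replicate 2) with 1 library left out. The PP2C median was -0.0648 without pifq replicate 2 and -0.067 without WT replicate 3, that of synthesis and catabolism was -0.28 without pifq replicate 1, and that of effectors was -0.132 without WT replicate 2. Over these 61 genes, 2 higher and 4 lower had an unadjusted p under 0.05 (13% of all genes had one), and DESeq2 called 1 higher, a receptor or signalling gene. The 4 phosphatase genes of lowest p were HAB2 (-0.11, adjusted p = 0.738), ABI2 (-0.12, 0.782), HAI1 (-0.13, 0.794) and HAI3 (-0.12, 0.819). Outside the rule for named genes, ABI1 read 248, 307 and 344 CPM in WT and 241, 276 and 333 CPM in pifq (-0.08 ± 0.13, adjusted p = 0.862). HAI2, another PP2C gene outside that rule, read 65.9, 82.3 and 87.6 CPM against 67.3, 72.5 and 87.7 CPM (-0.05 ± 0.20, adjusted p = 0.956). None of the 9 phosphatase genes had groups apart, beside 17.9% of all genes. Among effectors, 16 of 21 values were below 0. The dehydrin gene ERD10 had the lowest p of them and stood at 305, 327 and 279 CPM in WT and 217, 189 and 181 CPM in pifq, apart but not called (-0.64 ± 0.22, adjusted p = 0.198). The receptor gene PYL5 differed by 0.69 ± 0.20 (adjusted p = 0.11, with the replicate block 0.047). A replicate block fitted to the 6 compared libraries alone called 10 of the 21 effectors lower and 1 higher. Of all 18804 genes in that fit, 1566 were called lower and 2358 higher (20.9% in either direction). A missed threshold does not show equal levels.

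Chlorophyll synthesis was the list with calls in the other direction, 4 higher and 0 lower of 15 tested, with a median of 0.379 and all 15 values above 0. CHLI2, a subunit of magnesium chelatase, read 61.8, 56.3 and 55.1 CPM in WT and 89.5, 80.1 and 105 CPM in pifq (0.66 ± 0.13, adjusted p = 0.00757), and was lost without WT replicate 3 or pifq replicate 3 (adjusted p = 0.0629 and 0.0695). PORC, a protochlorophyllide oxidoreductase that works in light, read 166, 145 and 164 CPM against 238, 205 and 309 CPM (0.66 ± 0.15, adjusted p = 0.0313). It was lost when any library other than pifq replicate 2 was left out (adjusted p = 0.064 to 0.197). DVR, a divinyl reductase, changed by 0.55 ± 0.12 (adjusted p = 0.0256) and was lost when any library other than WT replicate 2 was left out (adjusted p = 0.0503 to 0.175). CHLD, the other chelatase subunit called, read 301, 303 and 282 CPM against 389, 378 and 385 CPM (0.38 ± 0.09, adjusted p = 0.029), groups that were even and apart. Its call was also lost whichever library was left out (adjusted p = 0.0596 to 0.175). Without WT replicate 3, and without pifq replicate 3, 0 of the 15 were called. With the replicate block 8 of the 15 were called higher, beside 542 of all 20828 genes.

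Photosystem and antenna genes gave 0 calls of 32 by edgeR and by DESeq2, with 3 at an unadjusted p under 0.05. All 32 values were nevertheless above 0, between 0.152 and 0.51 with a median of 0.246. The groups were apart in 30 of 32, beside 17.9% of all genes. With library totals alone the median was 0.178. The gene with the lowest p, the Rubisco small subunit RBCS3B, one of several similar copies, read 1146, 1217 and 1224 CPM in WT and 1545, 1668 and 1746 CPM in pifq (0.47 ± 0.16, adjusted p = 0.185, with the replicate block 0.0421). Relative to each gene's WT mean, the median photosystem gene stood at 0.971, 1.01 and 1.01 in the WT libraries and at 1.13, 1.17 and 1.26 in the pifq libraries. For chlorophyll synthesis the same medians were 1.02, 0.975 and 0.988 in WT and 1.32, 1.25 and 1.4 in pifq. The members share libraries, so their agreement is not a count of independent observations. With a replicate block fitted to the 6 compared libraries alone, 32 of 32 photosystem and 13 of 15 chlorophyll genes were called higher. That fit called 2358 of all 18804 genes higher and 1566 lower (20.9% in either direction). The same fit called 13 of 24 auxin, 8 of 13 ethylene and 7 of 10 wax and cutin genes lower and none of these higher. Antenna and Rubisco genes also mark leaf mesophyll, and the 4 mesophyll markers summed to 11100, 11900 and 11900 CPM in WT and 13900, 14900 and 15600 CPM in pifq, with none of the 4 called or at 0. Their part in the result was not tested.

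**Figure D3:**
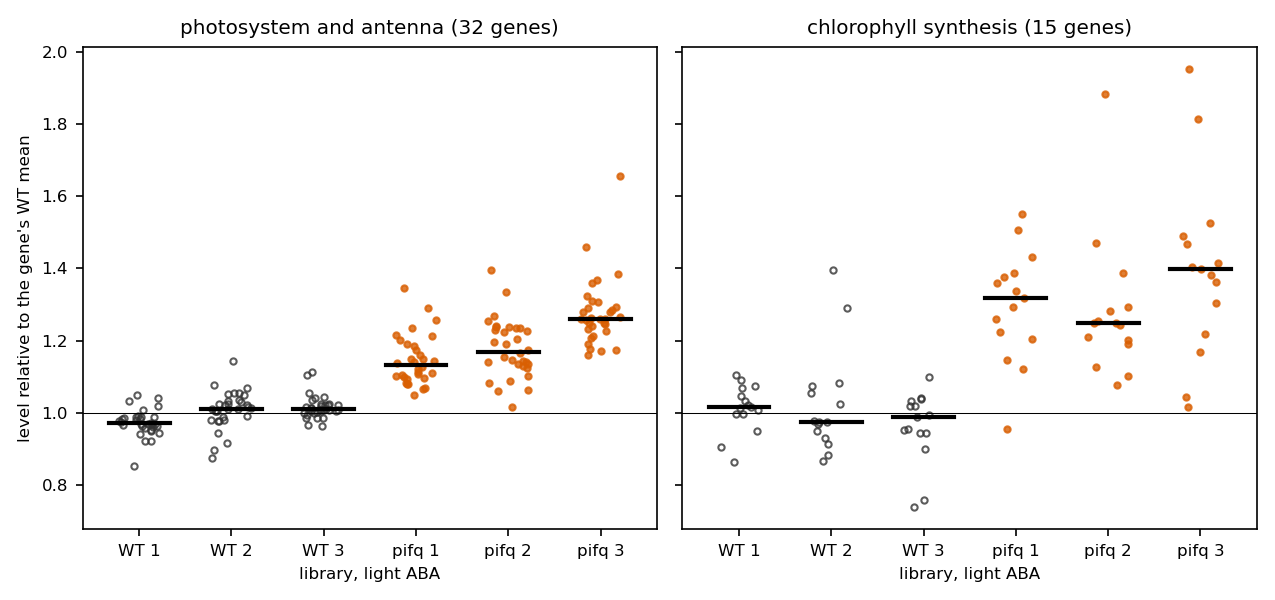
Level of each photosystem and antenna gene (left, 32 genes) and chlorophyll synthesis gene (right, 15 genes) divided by its mean in the 3 WT libraries, 1 column per library of light ABA, with horizontal bars at the medians. The medians of the 3 pifq libraries are 1.13 to 1.26 on the left and 1.25 to 1.4 on the right.

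Among the other lists calls were rare. The nitrite reductase gene NIR1, of nitrate assimilation, read 288, 315 and 317 CPM in WT and 206, 209 and 183 CPM in pifq (-0.62 ± 0.13, adjusted p = 0.017), and was the 1 call among 12 nitrate and phosphate genes. It was lost without WT replicates 2 or 3 or pifq replicates 1 or 3 (adjusted p = 0.0503 to 0.0919). BBX21, a B-box factor of photomorphogenesis, changed by -0.32 ± 0.08 (adjusted p = 0.033) as the 1 call among 14 B-box genes and was lost whichever library was left out (adjusted p = 0.0519 to 0.177). Seed storage and oil body genes had the highest median, 0.852, with 0 of 14 called and 0 with groups apart (17.9% of all genes had groups apart). The seed storage gene CRU2, a cruciferin, read 0.0687, 12.8 and 0.533 CPM in WT and 2.7, 49.5 and 1.46 CPM in pifq, highest in replicate 2 of both genotypes. The median of the list was -0.416 without pifq replicate 2 and 2.33 without WT replicate 2. None of the 14 had an unadjusted p under 0.05, and DESeq2 called 0 of 14. Iron-deficiency genes had a median of 0.485 (0.123 without pifq replicate 3) with 0 of 13 called (3 higher at an unadjusted p under 0.05, 2 called higher by DESeq2). Of these, BHLH101 read 0.687, 0.948 and 4.64 CPM against 2.85, 6.53 and 23.9 CPM, highest in replicate 3 of both genotypes (2.41 ± 0.69, adjusted p = 0.104, with the replicate block 0.000111), and with the block 4 of 13 were higher.

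Cytokinin (19 genes), photomorphogenesis (17), photoreceptor (12), clock (14), flavonoid (12), heat shock (9), jasmonate and defence (15), glucosinolate (14), mitotic (11), stomatal (11), root hair and endodermis (15), wax and cutin (11) and mesophyll and phloem (4) lists had 0 calls by edgeR. Over these lists 9 higher and 17 lower of 164 genes had an unadjusted p under 0.05, beside 13% of all genes. DESeq2 called 0 higher and 3 lower of 141, beside 2.84% of all genes it tested. Both counts are near the share over all genes. All 11 wax and cutin values were below 0, with a median of -0.335, but without WT replicate 1 the median was -0.191, and 1 value lay above 0 without WT replicate 1 or pifq replicate 2. KCS1, a fatty acid elongase, read 197, 126 and 158 CPM in WT and 118, 76.7 and 92.7 CPM in pifq (-0.74 ± 0.21, adjusted p = 0.0921, with the replicate block 0.0452). In the root hair and endodermis list 14 of 15 values were below 0 (median -0.628), and the median was -0.22 without WT replicate 3. The 8 root hair markers summed to 58.1, 40.3 and 98.1 CPM in WT and 44.2, 36.2 and 37.7 CPM in pifq, so WT replicate 3 alone stood high. The 7 endodermis markers summed to 89.5, 85.7 and 112 CPM against 84.4, 81.2 and 90.4 CPM, and the 5 guard cell markers to 39.6 to 52.6 CPM against 38.4 to 54.9 CPM. The 2 phloem markers summed to 299 to 361 CPM against 303 to 364 CPM. None of these markers was called and none was at 0 in all 6 libraries. The replicate block in all libraries called 542 of all 20828 genes higher and 376 lower (4.41% in either direction). With it, 2 flavonoid genes and 1 clock gene of these lists were called higher. Those called lower were 3 photoreceptor, 3 glucosinolate, 2 wax and cutin, 1 root hair or endodermis and 1 photomorphogenesis gene. They include the photoreceptor genes PHYA (adjusted p = 0.0979, with the block 0.0251) and PHYB (adjusted p = 0.0912, with the block 0.0186), lower in pifq, and for the greening factor GLK1 (adjusted p = 0.11, with the block 0.00596). GLK1 read 320, 286 and 254 CPM in WT and 215, 174 and 190 CPM in pifq. The glucosinolate genes are MAM1, of side-chain elongation (adjusted p = 0.143, with the block 0.00663), and the cytochromes P450 of core synthesis CYP83A1 (0.14 and 0.0154) and CYP79F1 (0.179 and 0.0373). The flavonoid genes are DFR, dihydroflavonol reductase (2.39 ± 0.72, adjusted p = 0.119, with the block 0.00668), and TT19, a glutathione transferase of pigment transport (0.185 and 0.0354). The clock gene is RVE1, a MYB-like factor (1.02 ± 0.42, adjusted p = 0.282, with the block 0.0355).

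**Figure D4:**
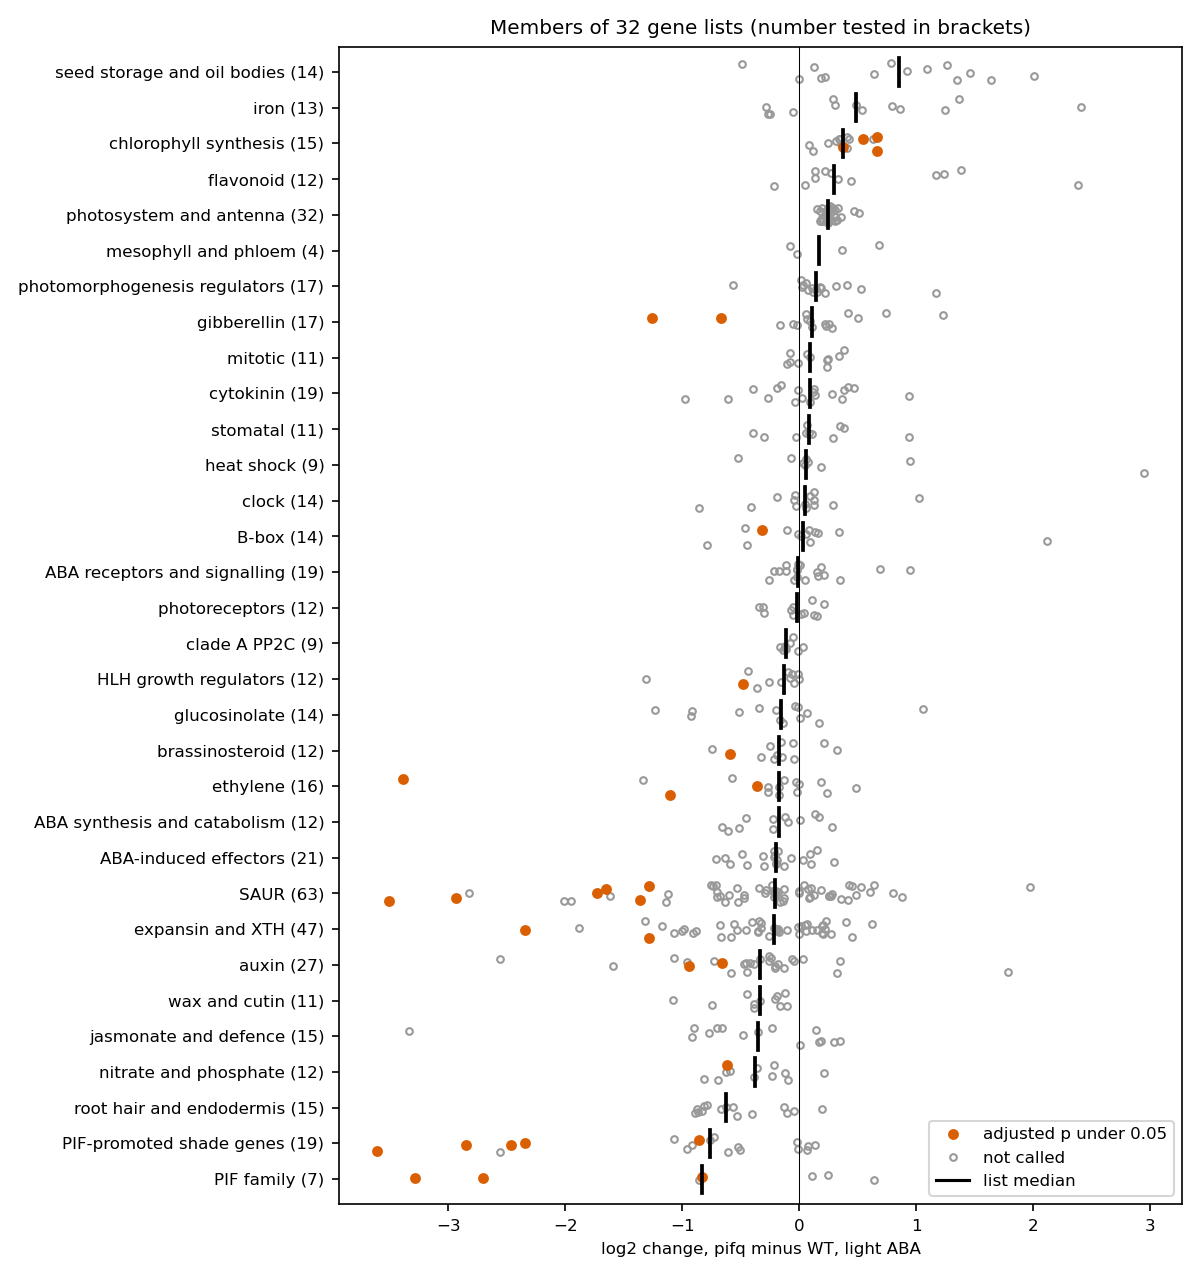
Log2 change of every tested member of 32 gene lists in pifq against WT under light ABA, 1 row per list ordered by its median (black bar), with called members in orange. Orange points lie left of 0 in the shade, SAUR, ethylene and auxin rows and right of 0 in the chlorophyll synthesis row alone.

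The genes called under light ABA were next read in the same genotype contrast under light mock and under dark ABA, which compare other libraries. All these contrasts came from the same fit, with a shared estimate of each gene's spread. Being called in more than 1 of them is therefore not an independent observation. In light mock 2208 genes were called (10.6%), and in dark ABA 8258 (39.6%). The light mock count was 1420 without WT mock replicate 2, 1032 without WT mock replicate 3, 1119 without pifq mock replicate 2 and 999 without pifq mock replicate 3. Of the 122 genes higher under light ABA, 53 were among the 1174 called higher in light mock (5.64% of all genes) and 0 among the 1034 called lower (4.96%), with a median of 0.417 there. Of the 145 lower genes, 95 were called lower in light mock and 1 higher, with a median of -0.635. The sign was the same in light mock for 114 of the 122 and 136 of the 145. In dark ABA, 79 of the 122 were among the 4614 called higher (22.2%) and 12 among the 3644 called lower (17.5%). Of the 145, 80 were called lower and 22 higher there, and the sign was the same for 99 of the 122 and 101 of the 145.

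**Figure D5:**
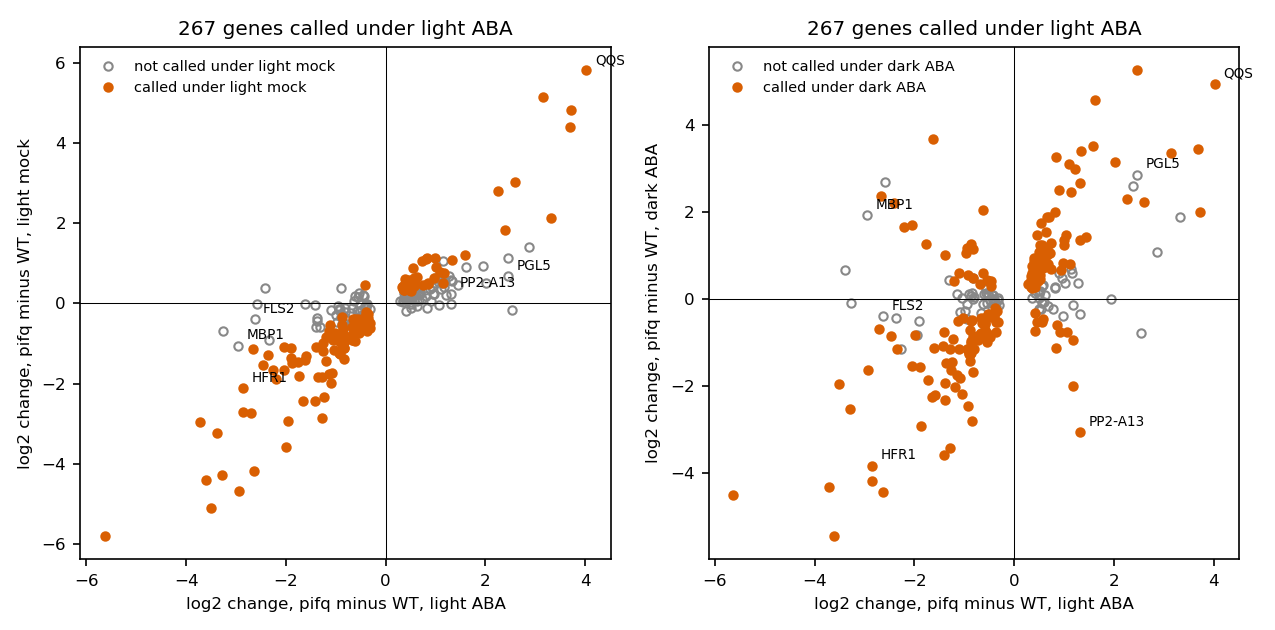
Log2 change of the 267 genes called under light ABA (horizontal axes) against the change of the same genes under light mock (left) and dark ABA (right), filled where also called there. QQS and HFR1 keep their direction in both panels, and PP2-A13 is higher under light ABA and lower under dark ABA.

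QQS was higher in pifq by 4.03 under light ABA, 5.82 under light mock and 4.95 under dark ABA on the log2 scale. HFR1 was lower in all 3 contrasts, by -2.85, -2.11 and -3.83, and PGL2 by -2.86, -2.72 and -4.18. PIF4 was lower in light, by -0.83 under ABA and -1.11 under mock, but higher under dark ABA, by 1.15. Lists showed the same spread of outcomes. The shade genes gave 5 of 19 lower under light ABA, 15 under light mock and 16 under dark ABA. Photosystem genes had medians of 0.246, -0.0721 and 2.21, with 30 of 32 called higher under dark ABA. Auxin genes gave 2, 15 and 12 lower of 27. Under dark ABA, 1 shade gene and 2 auxin genes were called higher and 1 photosystem gene lower. Of all genes, 0.696%, 4.96% and 17.5% were called lower in the 3 contrasts, and 22.2% higher under dark ABA. The list counts differ in part with the number of genes called in each contrast, and the difference itself was tested gene by gene as an interaction.

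The genotype by ABA interaction in light asks whether the genotype difference under ABA was other than on mock plates. It was called for 45 genes (0.216%), 18 higher (0.0864%) and 27 lower (0.13%), while 2100 (10.1%) had an unadjusted p under 0.05. Leaving out any of the 12 light libraries moved that count strongly, from 4 without pifq mock replicate 2 to 74 without pifq mock replicate 1. Among called genes with a symbol and at least 5 CPM, FLS2 had the lowest value, -2.23 ± 0.29 (adjusted p = 0.00226). On mock plates it stood at 80.4, 48.9 and 48.1 CPM in WT and 35, 46 and 53.9 CPM in pifq, overlapping groups, in contrast to the wide gap under ABA. It was not called with the 12 light libraries alone (adjusted p = 0.0646). ESM1 (AT3G14210), a modifier of glucosinolate breakdown, read 401, 506 and 459 CPM in WT and 130, 144 and 170 CPM in pifq under ABA, against 340, 391 and 294 CPM and 274, 374 and 372 CPM on mock plates. Its interaction was -1.61 ± 0.26 (adjusted p = 0.0146), lost without WT mock replicate 3 or pifq mock replicate 2.

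In the other 8 genes named for this interaction the genotypes were called apart on mock plates and not under ABA. ACS7, an ACC synthase of ethylene synthesis, stood under mock at 3.96, 4.56 and 3.43 CPM in WT and 14.3, 19.1 and 15.7 CPM in pifq. Under ABA it stood at 8.8, 10.4 and 9.74 CPM and 8.63, 10.3 and 7.12 CPM, overlapping, with an interaction of -2.18 ± 0.27 (adjusted p = 0.00104). PAR2, an atypical bHLH gene of the shade list, was at 11.6, 13.3 and 11.7 CPM against 6.1, 6.14 and 4.73 CPM under mock. Under ABA PAR2 was at 2.82, 3.65 and 3.2 CPM against 3, 3.66 and 3.52 CPM, low in both genotypes, with an interaction of 1.18 ± 0.24 (adjusted p = 0.0419). Its call was lost without 11 of the 12 light libraries. AILP1, an aluminium-induced protein gene, gave 1.05 ± 0.16 (adjusted p = 0.00674) and, like ACS7, was called under every setting and library left out. FAR1, here the fatty acid reductase gene AT5G22500, was at 87.9, 40.4 and 45.4 CPM in WT and 8.05, 6.92 and 7.79 CPM in pifq under mock, and at 82.2, 57.4 and 84.2 CPM against 54.9, 52.1 and 55.3 CPM under ABA. Its interaction was 2.47 ± 0.38 (adjusted p = 0.0146), lost without pifq mock replicate 2 and with the 12 light libraries alone.

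The genotype by light interaction under ABA was called for 3518 genes (16.9%), 1475 higher and 2043 lower, and seedling age differs with light here. Among the 267 genes called under light ABA, the interaction was called higher for 21 and lower for 19 of the 122 higher genes, and higher for 11 and lower for 57 of the 145 lower genes (background 7.08% and 9.81%). The light ABA libraries that chose these genes also enter the interaction. The counts are therefore no test, and the background is not a like measure for them. PP2-A13 gave 4.39 ± 0.43 (adjusted p = 2.12e-06). In darkness it stood at 58.8, 98.4 and 58.2 CPM in WT and 9.82, 8.52 and 7.23 CPM in pifq, the opposite order to that in light. BXL2 (3.19 ± 0.33, adjusted p = 2.85e-06), ASN1 (2.11 ± 0.38, adjusted p = 0.000727) and BGAL1 (1.97 ± 0.21, adjusted p = 2.14e-06) were likewise higher in pifq in light and lower in darkness. ELI3-1 turned the other way (-3.74 ± 0.38, adjusted p = 2.65e-06), at 13.1, 4.6 and 5.7 CPM in WT and 34.8, 22.3 and 20.1 CPM in pifq in darkness. In darkness FLS2 stood at 59.5, 53.3 and 53.1 CPM in WT and 46.6, 44.4 and 35.5 CPM in pifq, a change of -0.39 that was not called (adjusted p = 0.1). The genotype difference of FLS2 under light ABA thus exceeded that under light mock and that under dark ABA by interaction tests (-2.23 ± 0.29 for both, adjusted p = 0.00226 and 2.7e-05). Both tests use the same light ABA libraries, by which FLS2 was also chosen, so they are not separate observations. The interaction against light mock was not called with the 12 light libraries alone (adjusted p = 0.0646). Of the 32 photosystem genes, 29 had an interaction called lower, the genotype difference being smaller in light than in darkness.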

How the data were processed

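Raw counts of reads in 32833 genes and 24 libraries were deposited by the authors as 1 table. Per the submitters' processing notes, FastQC, STAR, SAMtools, DESeq2 and the build TAIR10 were used, without versions. Per the labels' protocols, stranded libraries were sequenced in pairs of 100 bases. The sources used here name no counting program, strand setting or annotation release, so reads of antisense or overlapping genes may be shared. No count was seen for 4822 genes. Symbols came from RefSeq, build TAIR10.1, in which 285 organelle genes were not matched. They stayed in the model, at 0.696% to 0.826% of the counts in the 6 libraries.

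R 4.3.3 with edgeR 4.0.16 and limma 3.58.1 was used. After filterByExpr by group and TMM scaling, genes were fitted by robust quasi-likelihood in all 24 libraries (8 groups of 3), so the groups share 1 estimate of the spread. The SE is the log2 change divided by the square root of F. Alternatives were RLE size factors, library totals alone, other filters, DESeq2 1.42.0, fewer libraries, a replicate block and leaving out each library. DESeq2's missing adjusted p-values stayed missing. Intervals cover counting error only.

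The labels give the same replicate numbers to each group with no word on whether a number stands for a batch. In light ABA the deviations of same-numbered WT and pifq libraries from their group means correlated over genes at r = 0.393, 0.513 and 0.338, all above 0.1, so the numbers were taken to pair them there. In light mock r was -0.157, 0.304 and -0.149 and in dark ABA 0.248, 0.0324 and 0.293.

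Named genes were the 12 highest and 12 lowest called genes, the 4 lowest p in each list, and the 5 highest and lowest of each interaction, with a symbol and a mean of at least 5 CPM in the highest group. The contrast and the gene lists were chosen with earlier results of these data known. The series' design text calls the 3 libraries of a group biological replicates, with no word on separate plates or days, so p-values measure the spread between these libraries.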

Additional observations from a re-analysis of the deposited data

Results flagged for a closer look

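These results were picked because the genotype difference itself differed between conditions by an interaction test in edgeR. Values are the log2 change of pifq against WT under light ABA minus that in the other condition, ± SE. Against light mock, the lowest values among called genes with a symbol and at least 5 CPM were those of FLS2 (-2.23 ± 0.29), ACS7 (-2.18 ± 0.27), ESM1 (-1.61 ± 0.26), the receptor kinase gene IOS1 (-1.34 ± 0.23) and the glucose-6-phosphate dehydrogenase gene G6PD3 (-1.18 ± 0.25). The highest were those of FAR1 (2.47 ± 0.38), PAR2 (1.18 ± 0.24), the protein kinase gene SR1, here AT5G01820 (1.08 ± 0.20), AILP1 (1.05 ± 0.16) and DOT1 (0.90 ± 0.19). IOS1 stood under mock at 48, 42.7 and 43.2 CPM in WT and 79.9, 91.9 and 97 CPM in pifq, and under ABA at 4.74, 5.47 and 7.31 CPM against 4.73, 5.1 and 3.95 CPM. The call was lost without 5 of the 12 light libraries for IOS1, without 8 for SR1, 10 for G6PD3 and 11 for PAR2 and DOT1, and for FAR1 without 1 and with the 12 light libraries alone. With the 12 light libraries alone the calls of FLS2, G6PD3, PAR2 and DOT1 were lost as well.

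Against dark ABA, the genotype difference was other for 14 of the 24 genes highest or lowest under light ABA, beside 16.9% of all genes. The light ABA libraries that chose these 24 genes also enter this interaction, so the count is no test. The change of pifq against WT, not the level of the gene, was lower in light than in darkness for PIF5 (-2.00 ± 0.24), FLS2 (-2.23 ± 0.29), ATHB2 (-1.61 ± 0.24), ELI3-1 (-3.74 ± 0.38), GH3.9 (-2.96 ± 0.64) and CYP76C6 (-2.05 ± 0.69). That change was higher in light than in darkness for PGL2 (1.33 ± 0.45), HFR1 (0.98 ± 0.22), PP2-A13 (4.39 ± 0.43), BXL2 (3.19 ± 0.33), CDC6 (1.32 ± 0.41), ASN1 (2.11 ± 0.38) and BGAL1 (1.97 ± 0.21). MBP1 differed too (adjusted p = 0.00315), with no size given because WT in dark ABA held 2 counts.

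Among all called genes with a symbol and at least 5 CPM, the 5 lowest values against dark ABA were those of genes low in WT in darkness and overlapping in light. They were the root hair expansin EXPA18 (-6.70 ± 0.94), the proline-rich protein PRP1 (-6.60 ± 0.92), the arabinogalactan protein AGP30 (-6.40 ± 1.16) and the beta-glucosidases BGLU35 (-6.29 ± 1.09) and BGLU34 (-6.20 ± 0.98), the last pair being similar genes. PRP1 stood under light ABA at 10.5, 5.47 and 19.9 CPM in WT and 8.1, 6.53 and 6.61 CPM in pifq, and under dark ABA at 0.554, 0 and 0.128 CPM against 6.03, 20.3 and 15.9 CPM. The 5 highest by that rule were PP2-A13, the pectin methylesterases ATPMEPCRD (5.14 ± 0.94) and PME61 (4.26 ± 0.88), the pyruvate decarboxylase PDC3 (4.76 ± 0.91) and the beta-galactosidase BGAL4 (4.25 ± 0.36). BGAL4 stood at 39.4, 60.4 and 47.3 CPM in WT and 66.1, 100.5 and 99.7 CPM in pifq in light, and at 288, 350 and 272 CPM against 41.1, 28.2 and 17.1 CPM in darkness.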

How the results depend on the processing

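The count of 267 genes under light ABA became 518 with DESeq2 (314 higher, 204 lower), 918 with the replicate block in all libraries, 155 with the 6 compared libraries alone, 3924 with the replicate block in those 6, and lay between 100 and 197 with 1 library left out. It was 270 with RLE size factors, 226 with no filter and 274 with a stricter one. With the 12 light libraries it was 392 (252 higher, 140 lower). The interaction with ABA gave 45 calls in the test with all libraries, 141 with DESeq2, 125 with the replicate block, 11 with the 12 light libraries, and 4 to 74 with 1 library left out. Light mock gave 3569 with the replicate block, a condition where the numbers do not pair the libraries, and 999 to 2268 with 1 library left out. The light interaction and dark ABA ranged over 2532 to 3978 and 6293 to 8184. Of 46 named genes called, 20 were called under every alternative and 26 were lost in some, 20 of them with 1 library left out, and 0 reversed. The replicate block removed no call of a named gene and added 27 of 101 uncalled ones. With 1 light ABA library left out, the sign turned for 9 uncalled genes. Their log2 changes ranged from -0.006074 to 0.6002 for ARR6, -0.09518 to 2.171 for ABI4, -1.08 to 5.908 for CRU2, -0.276 to 2.443 for OLEO3 and -1.065 to 5.111 for SESA3. They ranged from -0.05478 to 0.6572 for HSP17.6A, -0.04452 to 0.6208 for CYCA1;1, -0.04308 to 0.5075 for CYCB1;2 and -0.1109 to 0.04243 for SUC2. In promoter windows of 1000 bases, added after the data were seen, CACATG was in 50% of the lower and 40% of the higher genes. The cause of these shifts was not tested.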

Other observations

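The genes beside the mutated ones were read as a check on the genome around them. Of the 100 genes nearest to each, called genes numbered 0 at PIF1, 1 at PIF3, 0 at PIF4 and 3 at PIF5, beside 1.28% of all genes. AT1G09250, near PIF3, was lower (-0.72, adjusted p = 0.00127 in edgeR). At PIF5, PAO3, a polyamine oxidase gene next to it, was lower (-0.57, adjusted p = 0.0427), and AT3G59080, on its other side, was higher (0.99, adjusted p = 0.034), as was AT3G59250 (1.03, adjusted p = 0.0427).

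Some levels, chosen after their values were seen, moved with the replicate number in both genotypes. The clock gene LHY read 65.9, 12.1 and 58.1 CPM in WT and 34.8, 7.09 and 33.3 CPM in pifq, lowest in replicate 2 of both. Seed storage and endosperm markers summed to 473, 3100 and 1200 CPM in WT and 1380, 5190 and 880 CPM in pifq, highest in replicate 2 of both.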
